A study of Mus musculus with 6 samples.

Results

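A group of 8 mouse liver genes was followed: the ketone body dehydrogenase gene Bdh1, the pyruvate dehydrogenase kinase gene Pdk4, the acyl-CoA thioesterase genes Acot1, Acot2, Acot3 and Acot4, the pantetheinase gene Vnn1 and the transcription factor gene Creb3l3. They were chosen by name as genes of ketogenesis, acyl-CoA hydrolysis and the switch to fat as fuel in fasting. All 8 were found among the 54600 rows of the deposited table, each in 1 row. The samples were mouse livers: 3 libraries labelled KO, with HIF-2α knocked out in hepatocytes, and 3 labelled WT. The diet was high in fat for all 6 and lasted 16 weeks. The labels do not give the Cre driver, the deleted part of the gene, the sex or the age. Libraries carry the numbers 1 to 3 under each label, with no word on whether they are separate animals, so the p-values cover only the spread between samples and that may be technical. The study was made to ask what HIF-2α does in the progression of fatty liver disease.

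In fasting, the liver oxidises fatty acids to acetyl-CoA and turns the surplus into ketone bodies for other tissues. The nuclear receptor PPARα, activated by fatty acids, switches on many genes of this programme, and the Acot genes, Pdk4, Vnn1 and Creb3l3 are among those described as responding to it in mouse liver. Acyl-CoA thioesterases split acyl-CoA into free fatty acid and coenzyme A. Their products lie in different compartments: ACOT1 in the cytosol, ACOT2 in mitochondria, ACOT3 and ACOT4 in peroxisomes.

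Values are TPM, a level per transcript length with 1 common total for all libraries, so the depth is unknown. The number of genes at 1 TPM or more was 11013 to 11708 per library, and 11440 genes entered the tests. The libraries labelled KO did not have less Epas1, the gene of HIF-2α: its TPM values were 26.6, 35.1 and 29.4 in the libraries labelled KO, against 23.8, 26.0 and 21.01 in those labelled WT. The value is over the whole gene and all liver cells, so it goes against the label without settling it, and every direction below is between libraries labelled KO and WT. Whether a bulk value is low because fewer cells of a type were present or because each held less RNA cannot be told apart. The 12 hepatocyte markers, Alb and Ttr among them, summed to 69577 to 85910 TPM in the KO libraries and 61516 to 70140 TPM in the WT libraries. Alb weighs most in these sums, at 37937, 48972 and 31388 TPM in the KO libraries and 28784, 38868 and 31388 TPM in the WT libraries. Stellate and fibroblast markers summed to 144 to 166 TPM in KO and 120 to 142 TPM in WT, without overlap. Macrophage sums (371 to 389 TPM in KO, 287 to 408 in WT) and endothelial sums (135 to 156 in KO, 129 to 139 in WT) overlapped. Muscle markers summed to 0.048 to 0.277 TPM in the KO libraries and 0.702 to 1.76 TPM in the WT libraries, and 7 of 8 pancreas markers were at 0 in all 6. The WT muscle sums were mostly 1 gene, Acta1, named here after its values were seen. It was at 0, 0.048 and 0 TPM in the KO libraries and 1.305, 0.446 and 1.758 TPM in the WT libraries.

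The Acot genes lie side by side on chromosome 12 and their values turned out to move together between libraries, so the promoters of Acot1 to Acot4 are shown first. Each is 300 bases on the plus strand (RefSeq, build GRCm38.p6, which is mm10), from 250 bases before the start of the transcript to 50 after it. Capitals mark AGGTCA (or TGACCT on the other strand), the hexamer bound by PPARα and related nuclear receptors, and ACGTG (or CACGT), a core sequence of HIF binding sites.
Acot1 (chr12:84009252-84009551): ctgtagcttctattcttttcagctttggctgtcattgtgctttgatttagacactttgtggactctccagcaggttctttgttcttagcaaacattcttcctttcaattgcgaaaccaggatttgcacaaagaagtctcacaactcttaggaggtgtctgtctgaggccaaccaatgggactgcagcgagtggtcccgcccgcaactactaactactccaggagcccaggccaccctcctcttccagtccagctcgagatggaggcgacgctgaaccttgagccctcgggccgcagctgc
Acot2 (chr12:83987611-83987910): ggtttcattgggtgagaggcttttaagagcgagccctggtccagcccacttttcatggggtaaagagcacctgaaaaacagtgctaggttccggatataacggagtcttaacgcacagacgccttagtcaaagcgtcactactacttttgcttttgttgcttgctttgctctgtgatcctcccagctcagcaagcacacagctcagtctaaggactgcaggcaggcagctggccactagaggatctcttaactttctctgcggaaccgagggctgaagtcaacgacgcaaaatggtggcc
Acot3 (chr12:84051894-84052193): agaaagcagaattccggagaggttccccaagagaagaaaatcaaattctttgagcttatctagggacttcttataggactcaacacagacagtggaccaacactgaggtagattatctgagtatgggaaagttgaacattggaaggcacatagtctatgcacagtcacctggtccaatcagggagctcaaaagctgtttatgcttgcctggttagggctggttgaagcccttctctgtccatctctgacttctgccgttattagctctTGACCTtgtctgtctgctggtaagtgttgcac
Acot4 (chr12:84038129-84038428): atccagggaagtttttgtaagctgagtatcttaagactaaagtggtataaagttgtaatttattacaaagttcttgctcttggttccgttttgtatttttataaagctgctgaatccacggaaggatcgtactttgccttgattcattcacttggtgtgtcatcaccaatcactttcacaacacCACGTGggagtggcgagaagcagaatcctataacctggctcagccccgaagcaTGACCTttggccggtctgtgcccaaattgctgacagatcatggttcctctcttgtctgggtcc
The Acot3 and Acot4 promoters hold the hexamer 1 time each, both on the reverse strand, and Acot1 and Acot2 have none in this window. Among 32851 RefSeq promoters, 16.3% hold AGGTCA on either strand. The Acot4 match begins 13 bases before the start and the Acot3 match 18 bases after it. Acot4 also holds CACGTG, a palindrome that reads as ACGTG on both strands and begins 66 bases before the start. ACGTG is in 19.6% of the promoters. The other core form, GCGTG, was in none of these 4 windows and is in 32.4% of promoters. No member's promoter held the hexamer repeated in direct order with any 1 base between the copies, which is in 0.0396% of promoters. Of the other members, Pdk4 holds GCGTG 71 bases before its start, Bdh1 holds it at both of its listed starts, and Creb3l3 holds AGGTCA and ACGTG at 1 of its 2 starts. Promoter sequences were found for 7 of the 8 members. Matches describe letters in the sequence and were not tested as binding sites.

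In mm10, Acot2 (ENSMUSG00000021226) spans 83987861 to 83993873, Acot1 (ENSMUSG00000072949) 84009490 to 84018371, Acot4 (ENSMUSG00000052392) 84038379 to 84048601 and Acot3 (ENSMUSG00000021228) 84052144 to 84060402 on the plus strand of chromosome 12. Parts of their transcripts also occur in transcripts of other genes, so reads could be shared. Acot1 and Acot2 transcripts were 95.1% identical over 1274 aligned bases, and the other pairs 83.8% to 87.4% identical. Of the 100-base windows of the longest coding transcript, 21.9% in Acot1, 17.1% in Acot2, 16.6% in Acot3 and 8.85% in Acot4 also occur in a transcript of another gene. Acot1 and Acot2 had 359 such windows in common. In Acot4, 539 of 540 shared windows matched the antisense gene 4732463B04Rik. In Acot3, 330 of 552 matched Gm49366. Both of these genes overlap Acot4 and Acot3, so such matches are not likeness between Acot copies alone. The sources used here do not give how reads matching several genes were counted, so the level of 1 Acot gene against another is uncertain. Gm49366, annotated across Acot4 and Acot3, was at 1.58 TPM in WT library 1 and listed at 0 in the others, and the antisense gene 4732463B04Rik, which overlaps Acot4 and Acot3, stayed between 0.138 and 0.798 TPM. Vnn1 and Creb3l3 had no shared window of either 50 or 100 bases.

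Acot3, a peroxisomal thioesterase gene, varied more between libraries of 1 label than any other member. Its TPM values were 5.69, 22.7 and 0.074 in the KO libraries and 2.01, 30.2 and 0.288 in the WT libraries. The library numbered 2 was highest and the library numbered 3 lowest under both labels, 307-fold apart in KO and 105-fold apart in WT. These folds rest on values near 0 in the libraries numbered 3. On TPM + 1, the scale tested, they were 22.1-fold in KO and 24.3-fold in WT. The groups overlapped over nearly their whole range, and the limma difference (KO minus WT, log2(TPM + 1)) was +0.16 with a standard error of 1.40 (adjusted p = 0.994, over all tested genes).

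Acot4, which in mouse peroxisomes hydrolyses succinyl-CoA and other dicarboxylic acyl-CoA esters, had the same order. Its values were 13.1, 23.1 and 2.42 TPM in the KO libraries and 9.08, 36.9 and 4.58 TPM in the WT libraries. The limma difference was -0.29 with a standard error of 0.87 (adjusted p = 0.993). Both extremes lay in libraries of different labels: WT library 2 was the highest and KO library 3 the lowest.

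Acot2, the mitochondrial thioesterase gene, was low in all libraries. It was at 2.19, 3.20 and 0.655 TPM in the KO libraries and at 2.12, 3.99 and 0.722 TPM in the WT libraries. Same-numbered libraries were close to each other, while the libraries of 1 label were 4.88-fold apart in KO and 5.52-fold in WT. The limma difference was -0.09 with a standard error of 0.46 (adjusted p = 0.993).

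Acot1, the cytosolic thioesterase gene, departed from this order in 1 library. It was at 20.1, 18.6 and 10.3 TPM in the KO libraries and at 10.9, 28.5 and 6.08 TPM in the WT libraries. KO library 1 was highest within its label, while library 2 was highest in WT, and library 3 was lowest in both. The limma difference was +0.31 with a standard error of 0.50 (adjusted p = 0.993). KO was higher than the same-numbered WT library in 2 of 3 numbers.

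Summed over Acot1 to Acot4, the cluster stood at 41.0, 67.6 and 13.5 TPM in the KO libraries and 24.1, 99.6 and 11.7 TPM in the WT libraries. Acot3 made up 13.9%, 33.6% and 0.548% of that sum in the KO libraries and 8.36%, 30.4% and 2.47% in the WT libraries. Acot1 made up 48.9%, 27.6% and 76.7% in the KO libraries and 45.2%, 28.6% and 52.1% in the WT libraries. Acot1 held the largest share in the libraries numbered 1 and 3 of each label, and Acot4 in those numbered 2, with 34.1% in KO and 37.1% in WT. These shares set 1 Acot gene against another and carry the uncertainty from shared reads. Their neighbours downstream were low: Acot5 was listed at 0 in 5 libraries and at 0.038 TPM in WT library 2, and Acot6 was between 0.194 and 0.603 TPM in all 6.

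**Figure D1:**
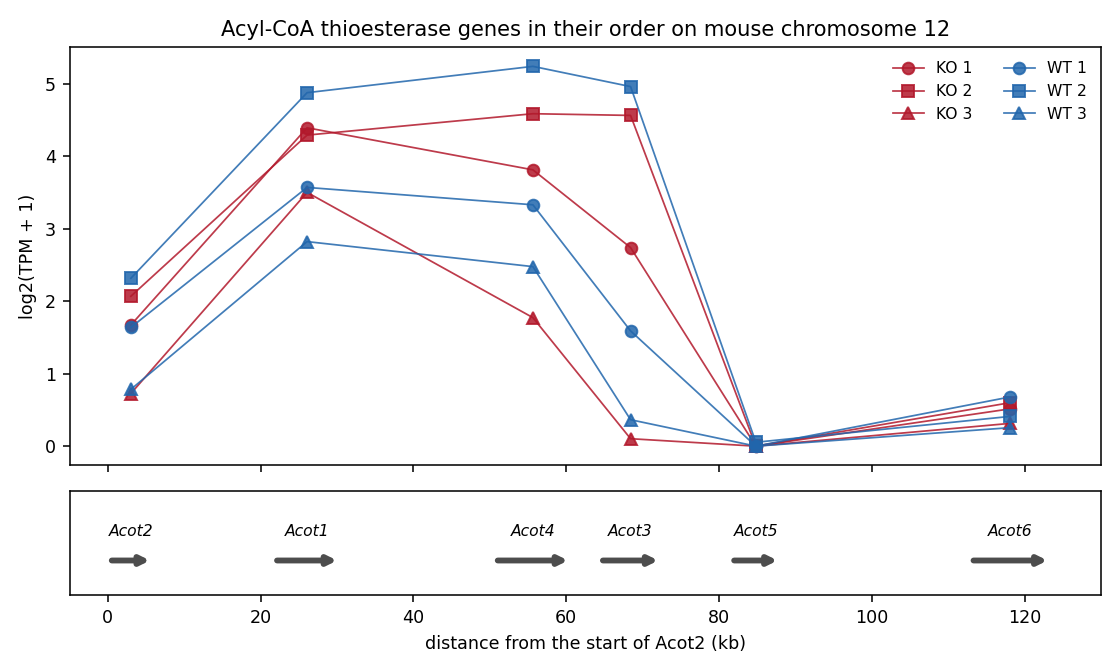
Levels of 6 acyl-CoA thioesterase genes in each library as log2(TPM + 1), placed at the middle of each gene along chromosome 12 in kb from the start of Acot2; red lines are KO, blue lines WT, and the marker gives the library number. Libraries numbered 2 are above those numbered 3 at Acot1 to Acot4 under both labels, and Acot5 and Acot6 stay low.

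Bdh1 (MSTRG.1337|ENSMUSG00000046598; chromosome 16, 31422280 to 31458901, plus strand) encodes the mitochondrial enzyme that turns acetoacetate into β-hydroxybutyrate, the last step of ketogenesis. It was at 191, 145 and 104 TPM in the KO libraries and at 176, 137 and 112 TPM in the WT libraries. Library 1 was highest and library 3 lowest under both labels, and the groups overlapped. The limma difference was +0.03 with a standard error of 0.25 (adjusted p = 0.994), and it turned to -0.078 with median-ratio scaling of the libraries and to -0.043 with quantile normalization. The interval of the difference, at a confidence level of 95%, ran from -0.56 to +0.63.

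An enzyme at the start of the pathway had the same highest and lowest library. Acat1, the mitochondrial thiolase that joins 2 acetyl-CoA, was at 178, 141 and 136 TPM in the KO libraries and at 183, 132 and 112 TPM in the WT libraries. Oxct1, needed to burn ketone bodies and normally scarce in hepatocytes, stayed between 1.2 and 2.21 TPM. Of 12 tested genes of ketone body synthesis, use and export, Bdh1 included, none passed the adjusted threshold, 9 had a log2 difference above 0 and the median was +0.09. Bdh2, a cytosolic dehydrogenase gene, had the smallest p of the list (0.041 unadjusted, 0.993 adjusted, limma), with 20.4, 20.1 and 17.3 TPM in the KO libraries and 13.6, 17.6 and 12.5 TPM in the WT libraries.

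Pdk4 (ENSMUSG00000019577; chromosome 6, 5483351 to 5496309, minus strand) encodes a kinase that shuts off the pyruvate dehydrogenase complex and so spares glucose carbon in fasting. It was low, at 1.31, 1.68 and 1.32 TPM in the KO libraries and at 1.32, 3.64 and 1.61 TPM in the WT libraries. WT library 2 stood above the other 5, which lay between 1.31 and 1.68 TPM. The KO library was lower in 3 of 3 numbers, a pattern held by 4.29% of tested genes, but the limma difference was -0.32 with a standard error of 0.27 (adjusted p = 0.993), and the exact permutation p was 0.60. Without WT library 2 the difference was -0.019.

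The sister kinase genes were at other levels. Pdk1 was at 28.0, 64.8 and 13.4 TPM in the KO libraries and at 28.9, 57.2 and 21.3 TPM in the WT libraries, again highest in library 2 and lowest in library 3 of each label. Pdk2 was at 55.0, 65.7 and 39.1 TPM in the KO libraries and at 52.1, 52.7 and 42.2 TPM in the WT libraries, and Pdk3 stayed below 0.5 TPM. Of 13 tested genes of the pyruvate dehydrogenase complex, its kinases and phosphatases and pyruvate entry, none passed, 7 were above 0, 6 were below and the median was +0.01. The 2 smallest p besides Pdk4's were those of the phosphatase gene Pdp2, at 6.85 ± 0.499 TPM in KO and 6.04 ± 0.666 TPM in WT, and Pdpr, at 7.70 ± 1.01 TPM in KO and 6.72 ± 0.785 TPM in WT (SD, n = 3 each).

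Vnn1 (MSTRG.250|ENSMUSG00000037440; chromosome 10, 23894688 to 23905343, plus strand) encodes vanin-1, which splits pantetheine into pantothenate, the precursor of coenzyme A, and cysteamine. It was at 61.6, 17.2 and 16.0 TPM in the KO libraries and at 45.4, 26.1 and 6.95 TPM in the WT libraries. Library 1 was highest and library 3 lowest in both labels, 3.85-fold apart in KO and 6.53-fold apart in WT. The limma difference was +0.32 with a standard error of 0.72 (adjusted p = 0.993). Without KO library 1 it was -0.29, and without WT library 3 it was -0.40.

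Its neighbour and relative Vnn3 did not share that order: it was at 44.1, 54.2 and 33.7 TPM in the KO libraries and at 34.0, 50.7 and 24.4 TPM in the WT libraries, highest in library 2. Of 11 tested genes of pantetheine breakdown and coenzyme A synthesis, none passed, 9 were above 0 and the median was +0.17. Pank1, a pantothenate kinase gene at the entry to coenzyme A synthesis that was named here after its values were seen, was at 112, 135 and 71.1 TPM in the KO libraries and at 110.1, 128 and 75.97 TPM in the WT libraries. Pank4, with the smallest p of the list, was at 4.50, 4.52 and 4.34 TPM in the KO libraries and 4.09, 3.95 and 3.31 TPM in the WT libraries. The mitochondrial coenzyme A carrier gene Slc25a42 was at 24.2 ± 3.17 TPM in KO and 20.6 ± 4.28 TPM in WT (SD, n = 3 each).

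Lists of markers of other tissues were summed as well. The 6 adipocyte markers summed to 41.1, 16.8 and 13.4 TPM in the KO libraries and 36.6, 11.4 and 13.6 TPM in the WT libraries, highest in library 1 like Vnn1 and Bdh1. That pattern was mostly 1 gene, Cfd (adipsin), named here after its values were seen, at 22.3, 2.47 and 0 TPM in the KO libraries and 23.2, 1.15 and 0.385 TPM in the WT libraries. Adipoq and Lep were at 0 in all 6 libraries. The 8 kidney and intestine markers summed to 98.4 to 236 TPM in KO and 115 to 193 TPM in WT, nearly all of it from Fabp2, also named after its values were seen, with Kap, Aqp2, Lct and Reg3b at 0. In the red cell list the same number was highest under both labels in 0 of 5 tested genes, and in the stellate and fibroblast list in 3 of 9. It was so in 6 of 10 in the endothelial list and 5 of 10 in the macrophage list, against 45.6% of all tested genes. The part of these markers in the members' values was not tested.

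Creb3l3 (ENSMUSG00000035041; chromosome 10, 81084324 to 81098874, minus strand) encodes CREBH, a liver transcription factor held in the endoplasmic reticulum membrane and released by cleavage in the Golgi. It was at 152, 146 and 133 TPM in the KO libraries and at 134, 123 and 129 TPM in the WT libraries. It was the steadiest member: KO library 3 was the only KO value inside the WT range, and no library was more than 1.146-fold from another of its label. The KO library was higher in 3 of 3 numbers, as in 26.9% of tested genes. The limma difference was +0.16 with a standard error of 0.12 (unadjusted p = 0.211, adjusted p = 0.993, exact permutation p = 0.20), with an interval from -0.11 to +0.43. Median-ratio scaling, which moved the median difference of all genes to -0.0016, against +0.095 without it, brought that of Creb3l3 to +0.048.

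Of the genes that process CREBH and its relatives, Mbtps2, the site-2 protease gene, was at 2.46 ± 0.479 TPM in KO and 3.46 ± 0.543 TPM in WT (SD, n = 3 each, limma unadjusted p = 0.065, adjusted p = 0.993). Insig1, a retention factor of the related SREBP pathway, was at 103 ± 4.75 TPM in KO and 146 ± 22.8 TPM in WT, with an unadjusted limma p of 0.012 and an adjusted p of 0.993. None of 9 tested genes of the CREB3 family and its processing passed, with 5 above 0 and a median of +0.02. Of 18 tested genes described as responsive to CREBH in liver, none passed, 12 were above 0, 6 were below and the median was +0.097, against +0.095 for all tested genes. Fgf21, the fasting hormone gene that CREBH and PPARα both regulate, was at 2.19, 1.66 and 1.27 TPM in the KO libraries and at 0.815, 3.86 and 1.47 TPM in the WT libraries. Apoa1, the main HDL protein gene, had the smallest p of that list, at 8821 ± 1572 TPM in KO and 6837 ± 336 TPM in WT (SD, n = 3 each, limma adjusted p = 0.993), followed by Apcs at 89.8 ± 14.9 TPM in KO and 75.7 ± 16.6 TPM in WT.

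**Figure D2:**
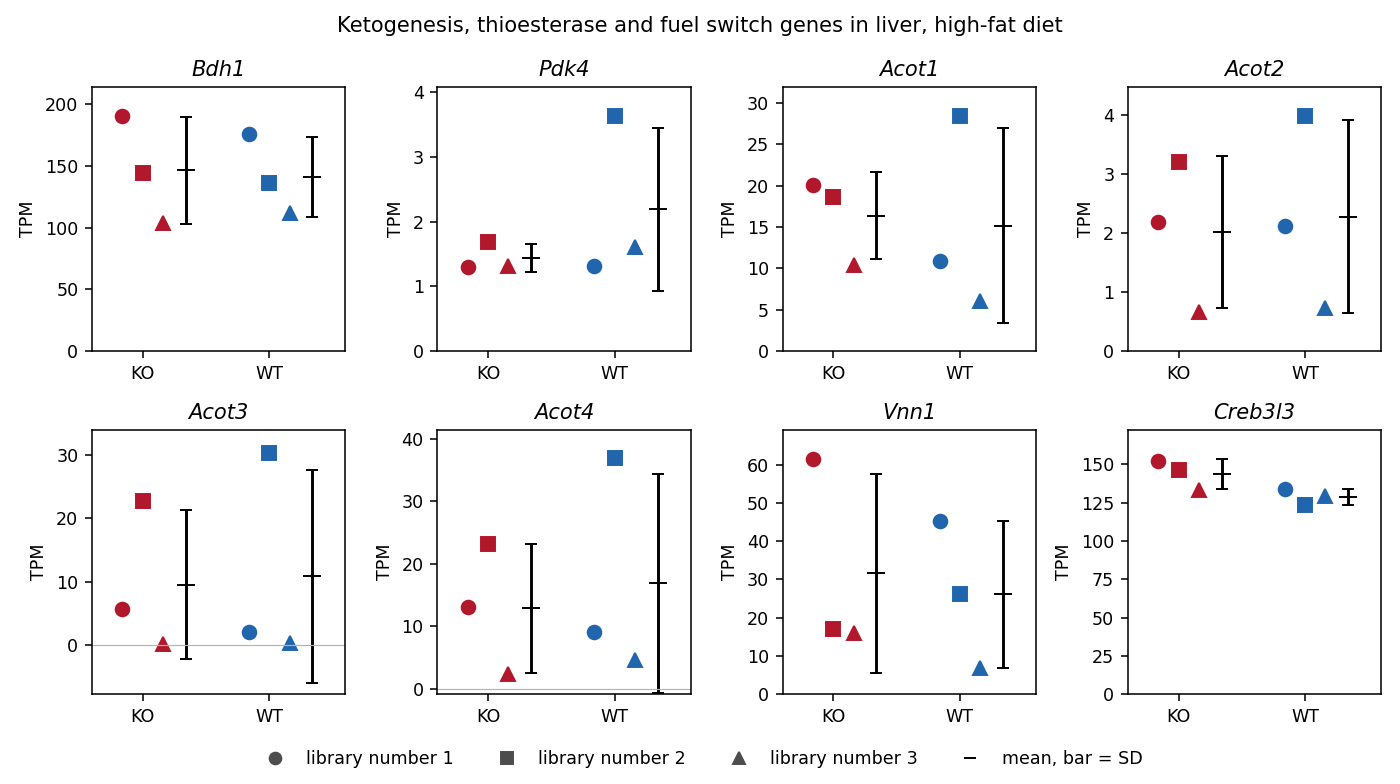
TPM of the 8 members in each library, KO left of WT; circles, squares and triangles are the libraries numbered 1, 2 and 3, and the black marks give the mean and SD of 3 libraries. The groups overlap in every panel, squares are highest for Acot2, Acot3, Acot4 and Pdk4 under both labels, and circles are highest for Bdh1, Vnn1 and Creb3l3.

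By mean over the 6 libraries on the TPM scale, the levels ran from Bdh1 (144 TPM) and Creb3l3 (136) through Vnn1 (28.9), Acot1 (15.7), Acot4 (14.9) and Acot3 (10.2) to Acot2 (2.14) and Pdk4 (1.81). The library values of neighbours in this order overlapped, except that the lowest Creb3l3 value lay above the highest of Vnn1.

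No member passed the threshold of an adjusted p below 0.05 (limma, Benjamini-Hochberg over 11440 genes), against 0.00874% of tested genes. That share is 1 gene, Gm13597, a processed pseudogene named here after its values were seen. No member had an unadjusted p below 0.05 either, against 3.15% of tested genes, and no member had groups that did not overlap, against 9.08% (KO above in 8.23%, below in 0.857%). With the library number as a block the smallest member p was 0.106, and 6.18% of tested genes were below 0.05. The balance of directions over all genes moved with the scaling: 316 genes were higher and 44 lower in KO at an unadjusted p below 0.05, against 150 and 144 with median-ratio scaling and 141 and 155 with quantile normalization. The smallest unadjusted p of a member was 0.211, for Creb3l3. Of the 8 differences 5 were above 0 and 3 below, with a median of +0.096, where 74.5% of all tested genes were above 0 with a median of +0.095. With 3 libraries against 3, an exact two-sided permutation test cannot go below 0.10, and the members' values ran from 0.20 to 1. The 95% intervals of the log2 difference were -3.10 to +3.43 for Acot3, -2.33 to +1.74 for Acot4, -1.37 to +2.01 for Vnn1, -1.16 to +0.98 for Acot2, -0.86 to +1.48 for Acot1 and -0.95 to +0.31 for Pdk4. With the library number as a block, most were much narrower: -0.66 to +0.99 for Acot3, -0.94 to +0.36 for Acot4, -0.46 to +1.10 for Vnn1, -0.46 to +0.28 for Acot2, -0.42 to +1.03 for Acot1 and -0.83 to +0.18 for Pdk4. The blocked intervals of Bdh1, -0.18 to +0.25, and Creb3l3, -0.047 to +0.37, also included 0.

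**Figure D3:**
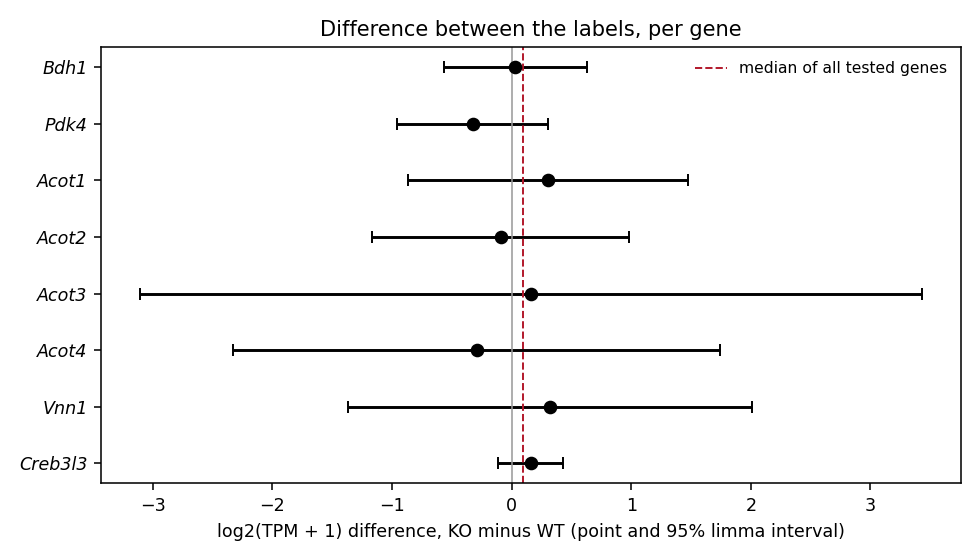
Difference between KO and WT on the log2(TPM + 1) scale for each member, with its limma interval at 95% confidence, without the block; the dashed line is the median of all tested genes. Every interval includes 0, and those of Creb3l3 (-0.11 to +0.43) and Acot3 (-3.10 to +3.43) are the narrowest and the widest.

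For every member but Creb3l3, the share of the spread between library numbers was larger than that between labels. The sum of squares of log2(TPM + 1) over the 6 libraries was split into a share between labels, a share between numbers and a rest. The number has more levels than the label, so it takes a larger share even of spread without a pattern. Medians over all tested genes are therefore given beside the shares. The number held 98.5% of it for Acot2, 97.3% for Bdh1, 96.4% for Acot3, 93.1% for Acot4, 85.1% for Vnn1 and 73.4% for Acot1, against a median of 53.5% over all tested genes. The label held between 0.186% and 5.04% for these 6 members, against a median of 11.7%. Pdk4 was near the general pattern for the number, with 56.9%, and had 20.7% between labels. Creb3l3 was the reverse of the rest, with 24.5% by number and 58.6% by label, of a small total spread: its residual SD was higher than in only 4.94% of tested genes, while that of Acot3 was at the percentile 99.9. The labels do not say what a number stands for, and what the libraries of a number share was not tested.

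**Figure D4:**
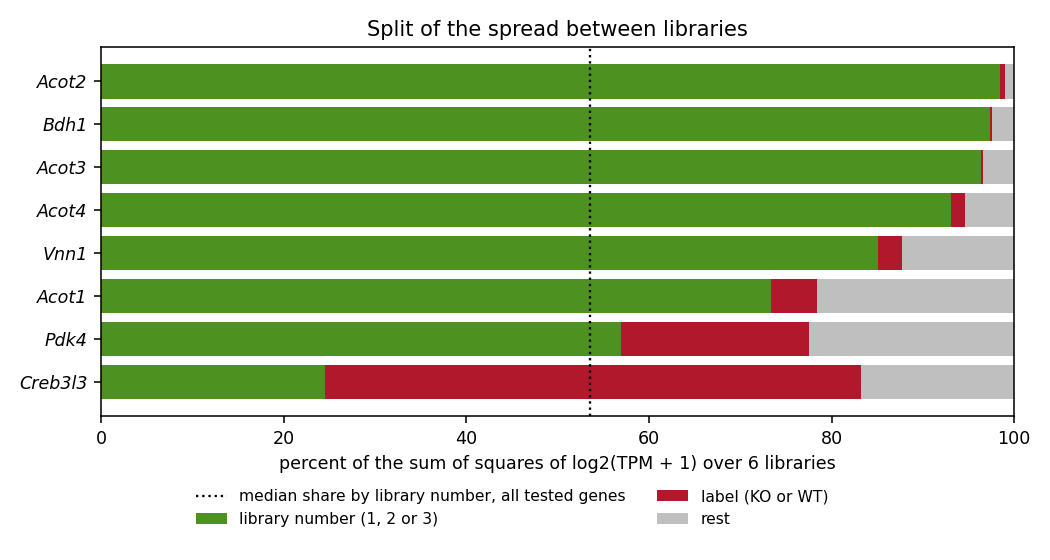
Split of the sum of squares of log2(TPM + 1) over 6 libraries for each member, in percent, into library number, label and the rest; the dotted line is the median share by number over all tested genes, 53.5%. The share by number is above that line for 7 members and below it for Creb3l3.

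The same number was highest under both labels for 7 of the 8 members, against 45.6% of tested genes, and number 3 was lowest under both for 6 of 8, against 35.2%. The members fell into patterns. Acot2, Acot3, Acot4 and Pdk4 peaked in library 2 of each label, and Bdh1, Vnn1 and Creb3l3 in library 1. Over the 6 libraries, Pearson's r of log2(TPM + 1) was 0.98 between Acot3 and Acot4, 0.98 between Acot2 and Acot4 and 0.96 between Acot2 and Acot3, each with a Spearman rho of 1. Between Bdh1 and Vnn1 r was 0.88 (rho 0.89), and between Creb3l3 and the Acot genes r lay between 0.07 and 0.20 (rho 0.03 to 0.14). These r describe 6 libraries that share the pattern of numbers, and part of the likeness among Acot genes could come from shared reads, which was not tested.

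Most genes described as PPARα responsive were also lowest in library 3 of each label, as in some other lists but not all. Of 35 other tested genes described as PPARα responsive in liver, number 3 was lowest under both labels in 30, number 1 highest under both in 19 and number 2 in 6, against 35.2%, 21.2% and 19.1% of tested genes. Their median share of the spread by number was 88.7%. In 11 ketone body genes other than Bdh1 that share was 88.58%, and number 3 was lowest under both labels in 7. The same held in 11 of 12 pyruvate dehydrogenase genes other than Pdk4 and in 9 of 10 coenzyme A genes other than Vnn1. Between labels none of the 42 tested genes of the whole PPARα list passed, 27 were above 0 and 15 below, and the median was +0.07. The smallest p belonged to Cyp4a32, at 12.3 ± 3.41 TPM in KO and 9.37 ± 1.53 TPM in WT, and the retinol saturase gene Retsat, at 133 ± 41.5 TPM in KO and 101 ± 29.1 TPM in WT (SD, n = 3 each, limma adjusted p = 0.993 for both). Ppara itself was at 70.3, 83.1 and 28.1 TPM in the KO libraries and at 72.6, 57.4 and 47.9 TPM in the WT libraries, lowest in library 3 of each label.

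Other thioesterase and acyl-CoA hydrolase genes were less uniform: of 12 tested, number 3 was lowest in 8, number 2 highest in 4 and number 1 highest in 2 under both labels. Acot12, a cytosolic acetyl-CoA thioesterase gene, was at 54.3 ± 6.85 TPM in KO and 45.8 ± 7.79 TPM in WT, Baat, which joins bile acids to amino acids, at 151 ± 6.71 TPM in KO and 161 ± 11.02 TPM in WT, and Acot11 at 6.38 ± 1.203 in KO and 5.70 ± 1.86 in WT (SD, n = 3 each). None of the 12 passed, with 7 above 0 and a median of +0.05. Among 27 tested regulators of the fasting response, number 3 was lowest under both labels in 6 and the median share by number was 37.95%, below the 53.5% of all tested genes. Of 8 tested genes of the CREB3 family and its processing other than Creb3l3, number 3 was lowest under both labels in 1. None of the 27 regulators passed, with 20 above 0 and 7 below. Crtc2, a coactivator of CREB in fasting, was at 12.1, 9.91 and 11.2 TPM in the KO libraries and at 7.91, 8.95 and 8.12 TPM in the WT libraries, with an unadjusted limma p of 0.022 and an adjusted p of 0.993. Tsc22d3, a glucocorticoid-induced gene, was at 102, 67.0 and 43.8 TPM in the KO libraries and at 108, 113 and 116 TPM in the WT libraries (unadjusted p = 0.032, adjusted p = 0.993, limma), and Fkbp5, also induced by glucocorticoids, at 6.50, 11.9 and 13.2 TPM in KO and 4.79, 7.06 and 8.49 TPM in WT.

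Genes of the fed state moved with the Acot genes across libraries. The 15 genes of that list, in which the desaturase gene Scd1 weighs most, summed to 2817, 5494 and 657 TPM in the KO libraries and to 1912, 8464 and 2433 TPM in the WT libraries, with library 2 highest under both labels. Number 2 was highest under both labels in 9 of 14 tested members. Between labels 12 of the 14 were below 0 with a median of -0.40, and none passed. Fasn, the fatty acid synthase gene, was at 166, 192 and 32.98 TPM in the KO libraries and at 157, 399 and 119 TPM in the WT libraries. Feeding time before sampling is not given in the labels, and its part in these values was not tested.

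**Figure D5:**
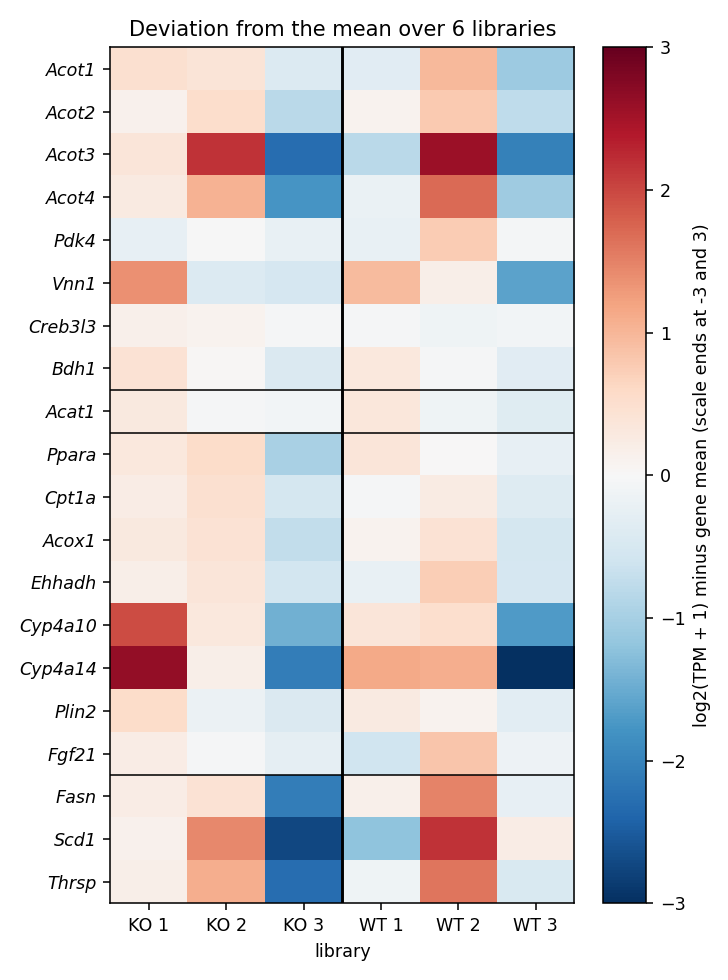
Deviation of log2(TPM + 1) from each gene's mean over 6 libraries, KO libraries left of WT libraries; rows are the 8 members, the ketogenic enzyme gene Acat1, Ppara with genes described as responsive to it, and 3 fed-state genes, some of them chosen after their values were seen. Library 3 of each label is below the mean in most rows, and library 2 is highest for Acot3, Acot4 and Scd1.

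The genes most like each member over the 6 libraries were taken from the tested genes with a mean of at least 5 TPM by Pearson's r. For Acot3 they included Mme (0.998) and Map2k4 (0.996). For Acot4 they were Gstt1 (0.996), Tkt (0.995) and Ddt (0.995), for Acot2 Picalm, Mgst3 and Sec23a (0.992 to 0.998), and for Acot1 they included Uqcrh (0.994) and Tmem256 (0.985). For Bdh1 they were Atp9a, Ltbr and Cideb (0.995 to 0.997), and for Vnn1 Mrps18c, Tma7 and Suds3 (0.991 to 0.997). Pdk4 was most like Cited2 (0.971), Lgalsl (0.955) and Golt1a (0.953), and Creb3l3 most like Ebag9, Ccdc43 and Mettl27 (0.971 to 0.985). With so many candidate genes and only 6 libraries, the best must have a high r, so these values describe likeness only.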

How the data were processed

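RNA of 6 mouse liver libraries, 3 labelled KO and 3 labelled WT, was measured by RNA-seq. Total RNA was isolated by TRIzol and an NEB library kit was used, per the labels' protocols. The authors deposited 1 table of TPM, with 54600 rows. The tools HISAT2, fastp, featureCounts, limma and DESeq2 and the build mm10 are named in the submitters' processing notes, without versions or roles. Strand and multi-mapping settings are not given there. TPM keeps no depth, so no count model and no counting intervals were used, and the number of libraries limits the precision. Of 54323 Ensembl identifiers 51492 matched a symbol.

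The 11440 genes that reached 1 TPM in 3 or more libraries were tested on log2(TPM + 1) with limma 3.58.1 in R 4.3.3, with a variance trend, two-sided, and Benjamini-Hochberg adjustment over all of them. The scale understates changes of low genes. The limma step was tested on simulated data with noise drawn independently for each library. That test therefore did not cover the likeness between libraries of the same number. Single genes also had an exact permutation test. Coordinates are from GENCODE M21, alignments from BLAST 2.17.0, promoters from RefSeq.

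Members and gene lists were chosen with earlier results of these data known. Genes named are the members, Epas1, their partners in each pathway, up to 3 genes of each list with the smallest p, and the 3 genes most like each member. Exceptions are said to be named after their values were seen. Some genes that this rule names are not reported here.

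Pearson's r between deviations from the group mean was 0.157, 0.408 and 0.381 for KO and WT libraries of the same number, and -0.369 to 0.026 for other pairs. All 3 exceeded 0.1, but the labels do not say that the numbers pair the libraries. The main fit had no block, and its differences, standard errors and p-values are given wherever no block is named. A fit with the number as a block was run as an alternative. Other alternatives were pseudocounts, filters, scaling, no variance trend, and leaving out libraries.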

Additional observations from a re-analysis of the deposited data

How the results depend on the processing

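With the replicate number as a block, 0 members and 0 genes passed, and unadjusted p below 0.05 went to 707 of 11440 genes, against 360 without it. The block changed no member's call. Each member stayed outside the threshold in all alternatives run for it, with an adjusted p of 0.724 or more. Of 11440 genes 1 passed, and 0 passed with a pseudocount of 5, no filter, a filter of 5 TPM, quantile normalization, the block with or without median-ratio scaling, or without both libraries numbered 1, 2 or 3 (added after seeing the data). Leaving out 1 library gave 0 to 2.

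Signs of small differences turned. Bdh1 was at -0.078 with median-ratio scaling, with or without the block, -0.043 with quantile normalization and -0.011 without both libraries numbered 1. Acot3 was at -0.038 with a pseudocount of 0.1, and Vnn1 at -0.073 without both libraries numbered 3. Without 1 library, Bdh1 ranged from -0.18 to +0.26, Acot1 from -0.16 to +0.87, Acot2 from -0.49 to +0.29, Acot3 from -0.88 to +1.49, Acot4 from -0.90 to +0.52 and Vnn1 from -0.40 to +0.87. Pdk4 ranged from -0.52 to -0.019 and Creb3l3 from +0.12 to +0.21. Causes were not tested. Pdk4 and Acot2 gave no value with the filter of 5 TPM, and Acot2 and Acot3 gave none without both libraries numbered 1 or 2, where they were below the filter. Each symbol had 1 row, so summing rows changed nothing.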
